A study of Homo sapiens with 14 samples.

Results

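Peaks of the heat shock factors HSF1 and HSF2 at the inducible HSP70 genes HSPA6 and HSPA7 were described in K562, a human leukemia cell line with erythroid traits, from deposited ChIP-seq peak lists. Members were all deposited peaks that overlap either a window of chromosome 1 from 161485000 to 161510000 (HSPA6, start at 161494036) or one from 161565000 to 161590000 (HSPA7, start at about 161576000), in hg19 coordinates. They numbered 13 of 117699 peaks, with 9 at HSPA6 and 4 at HSPA7. Antibodies against HSF1, HSF2 and non-specific IgG were each used on 4 kinds of cells: heat-treated mitotic, heat-treated cycling, non-treated mitotic and non-treated cycling. Heat was 30 min at 42 °C, all cells were grown at 37 °C, and cycling cells were unsynchronised. Each of the 12 combinations is 1 library, made from 10 pooled immunoprecipitations, and each cell state has 1 input library labelled as heat-treated, which served as the control of the lists of that state. The headers give 36542527 kept input tags for IgG of non-treated cycling cells and 34815679 for the other 5 cycling lists, so the input as processed was not the same for that list. With 1 library per group no difference between conditions can be tested, and intervals below are 95% intervals that cover counting error in these libraries alone.

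HSPA6 encodes HSP70B', a member of the 70-kDa heat shock protein family that is strictly stress-inducible and has little or no expression in unstressed cells, unlike the constitutive HSPA8 (HSC70). HSPA7 (HSP70B) is a closely related copy that is annotated as a transcribed pseudogene. Heat turns HSF1 from an inactive monomer into a trimer that binds heat shock elements, arrays of GAA units in alternating direction, and activates chaperone genes. HSF2 recognises the same element and can form mixed trimers with HSF1. In mitosis chromatin is condensed and most transcription is silenced. Only binding was measured here, not expression.

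The letters of the HSPA6 promoter are shown because they hold the element that both factors recognise. The window runs from 250 bases before to 50 after the RefSeq start (GRCh38.p14, plus strand, chr1:161524290-161524589), and these coordinates cannot be compared with the hg19 positions of the peaks. Capitals mark matches to 2 adjacent units (GAANNTTC or TTCNNGAA, both strands), which overlap each other in the second stretch.

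HSPA6 promoter: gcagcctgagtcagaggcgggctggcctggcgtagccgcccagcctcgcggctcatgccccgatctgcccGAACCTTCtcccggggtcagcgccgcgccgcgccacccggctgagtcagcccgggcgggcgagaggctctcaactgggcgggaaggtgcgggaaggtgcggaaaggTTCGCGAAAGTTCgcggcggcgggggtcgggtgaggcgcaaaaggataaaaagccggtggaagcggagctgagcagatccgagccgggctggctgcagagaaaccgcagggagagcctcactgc

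The second stretch holds 3 units in a row and lies at positions -74 to -62 relative to the RefSeq start. Of 35116 RefSeq promoter windows of the same length, 172 (0.490%) hold 3 such units and 4737 (13.5%) hold 2. Neither TATAAA nor CCAAT, each read on both strands, was found in the HSPA6 window, and 11.5% and 34.6% of all windows hold them. Among the 17 genes of the HSP70 superfamily looked up, 14 had a promoter in the table, and of these only HSPA6 and HSPA8 held 3 exact units. HSPA7 was among the genes without a promoter there, so its letters were not searched. The elements of HSPA6, of HSPA8 and of the major stress-inducible genes HSPA1A and HSPA1B are set below each other, with flanks in lower case and the matched units in capitals. HSPA4L and HSPA9 each also held 1 exact element of 2 units, which is not shown. The 1 exact element of HSPA1L is, flanks included, the reverse complement of the HSPA1A letters.

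HSPA6, 3 units: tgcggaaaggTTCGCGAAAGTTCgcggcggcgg

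HSPA6, 2 units: cgatctgcccGAACCTTCtcccggggtc

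HSPA8, 3 units, distal: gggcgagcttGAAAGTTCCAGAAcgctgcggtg

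HSPA8, 3 units, proximal: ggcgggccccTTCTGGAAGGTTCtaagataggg

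HSPA1A, 2 units: gaaaaccctgGAATATTCccgacctggc

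HSPA1B, 2 units: gaaacccctgGAATATTCccgacctggc

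HSPA1A and HSPA1B shared the same letters in this element and had no further exact unit beside it. Allowing 1 mismatch in the 9 fixed letters raised the share of promoters with 3 units to 6.24% and the number of such matches at HSPA6 to 4. By this rule HSPA1A, HSPA1B, HSPA1L and HSPA9 held 1 match each and HSPA4L held 2, so such matches were not particular to HSPA6. HSPA8 stayed at 2. A match describes these letters and does not show a bound site.

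In the reference annotation both genes follow an Fc gamma receptor gene. Between FCGR2A and HSPA6 lie a tRNA pseudogene, TRD-GTC10-1, and the glycine tRNA gene TRG-GCC2-1, and HSPA7 is preceded by FCGR2C. HSPA6 is followed by the leucine tRNA gene TRL-CAG1-6, the glycine tRNA gene TRG-TCC2-6, the ribosomal protein pseudogene RPS23P10, the asparagine tRNA gene TRN-GTT1-1 and FCGR3A. HSPA7 is followed by the leucine tRNA gene TRL-CAA6-1, the ribosomal protein pseudogene RPS23P9 and FCGR3B. Which of these genes lie under the peaks was not determined, because that annotation is on another build. HSPA6 and HSPA7 are near-identical copies, and how reads matching both were placed is not given in the sources used here, so the split of tags between them is uncertain in every value below.

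Kept tags per library ranged from 2066373 (IgG, non-treated mitotic) to 28676943 (HSF2, non-treated cycling), and levels are tags in a peak per 1000000 kept tags (CPM). The fold is the authors' own ratio of ChIP to expected input tags and serves to rank peaks within a list. The headers of 5 cycling lists hold bwa in the name of the alignment file, while those of the other 7 lists carry another naming. Those 7 are all 6 mitotic lists and IgG of non-treated cycling cells. The submitters' processing notes name Bowtie, so the aligner of these lists is not settled here. Of the 13 members, 9 were in the lists of the bwa naming and 4 in the others. The 5 lists of the bwa naming hold 6447 (HSF1, heat), 4315 (HSF2, heat), 4718 (HSF1, non-treated), 875 (HSF2, non-treated) and 4377 (IgG, heat) of the 117699 peaks. For HSF1 and HSF2 all cycling lists carry the bwa naming and all mitotic lists the other. Cell state and alignment naming therefore cannot be told apart for these factors.

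Heat-treated cycling cells carried HSF1 at 4 places, near each gene's start and several kb downstream of each, and HSF2 at 3 of these places. The HSF1 and HSF2 lists of these cells held 8 of the 13 members, and 6447 and 4315 of all 117699 peaks. The other lists with a member were HSF1 in non-treated cycling cells (1 peak), HSF2 in non-treated mitotic cells (1 peak) and IgG in heat-treated mitotic cells (3 peaks). No peak lay in either window in the other 7 lists, which include HSF1 and HSF2 of heat-treated mitotic cells, HSF1 of non-treated mitotic cells, HSF2 of non-treated cycling cells and IgG of cycling cells with and without heat.

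**Figure D1:**
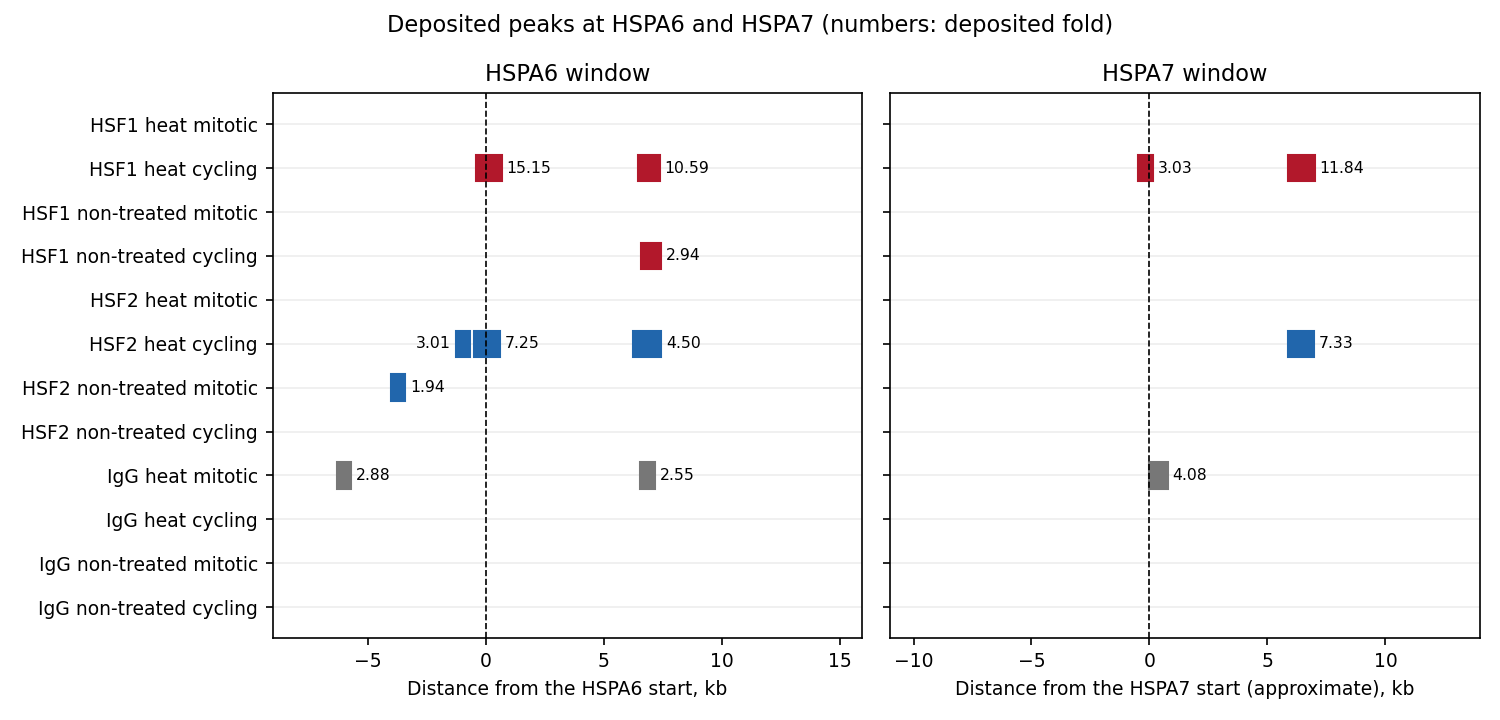
Each box is a deposited peak drawn to scale by its distance from the gene start in kb (HSPA6 left, HSPA7 right), with 1 line per list and the deposited fold beside the box. In heat-treated cycling cells HSF1 and HSF2 peaks sit at the HSPA6 start and downstream of both genes, with folds up to 15.15, and the heat-treated mitotic HSF1 and HSF2 lines are empty.

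The peak with the highest fold of all members was HSF1 at the HSPA6 start in heat-treated cycling cells. It ran from 161493628 to 161494718 and held 67 tags (4.00 CPM, 3.10 to 5.08), with a fold of 15.15 and an FDR of 0%. Its summit lay 142 bp after the start given for HSPA6. HSF2 in the same cells had 36 tags at 161493541 to 161494621 (1.85 CPM, 1.29 to 2.56), with a fold of 7.25. The summits of both factors were 33 bp apart, and both lists were called against the same input. HSF1 of non-treated cycling cells had no peak at the HSPA6 start, and neither did IgG of heat-treated or non-treated cycling cells.

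HSF2 also had a small separate peak upstream of it at 161492757 to 161493355, with 14 tags (0.719 CPM) and a fold of 3.01. That is the fewest tags of any peak in the list.

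Of the 7 places the members form, the downstream HSPA6 peak was the only one with an HSF1 peak before heat. HSF1 held 52 tags there in heat-treated cycling cells (161500468 to 161501415, 3.11 CPM, 2.32 to 4.07, fold 10.59) and 16 tags in non-treated cycling cells (161500634 to 161501453, 1.11 CPM, 0.633 to 1.80, fold 2.94). The heat-treated level was 2.81 times the non-treated one, with a counting interval of 1.58 to 5.26. This ratio compares a pair of libraries and not the conditions, and the FDR of the non-treated peak was 5.18%. HSF2 had 40 tags there in heat-treated cycling cells (161500277 to 161501477, 2.05 CPM, 1.47 to 2.80, fold 4.50) and no peak without heat. IgG of heat-treated mitotic cells had 15 tags at the same place (0.834 CPM, 0.467 to 1.38, fold 2.55), with its summit 219 bp from that of HSF1. The interval of that IgG level overlaps the one of non-treated HSF1. The downstream summit lay 6665 bp after the start summit in the HSF1 list and 6560 bp in the HSF2 list.

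At HSPA7 the downstream HSF1 peak was the larger one. Near its start HSF1 of heat-treated cycling cells had 16 tags (161575519 to 161576149, 0.956 CPM, 0.546 to 1.55, fold 3.03, FDR 1.77%), and HSF2 had no peak. IgG of heat-treated mitotic cells had 20 tags at 161575980 to 161576773 (1.11 CPM, 0.679 to 1.72, fold 4.08), which overlaps the edge of the HSF1 peak with a summit 729 bp away. The intervals of the HSF1 and the IgG level overlap. IgG of heat-treated cycling cells had no peak there.

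Downstream of HSPA7, HSF1 had 77 tags, the most of any member (161581891 to 161582995, 4.60 CPM, 3.63 to 5.75, fold 11.84, FDR 0%). HSF2 had 45 tags at 161581867 to 161582968 (2.31 CPM, 1.69 to 3.09, fold 7.33), with a summit 11 bp from that of HSF1. No other list, IgG included, had a peak there. In the HSF1 list the downstream summit lay 6746 bp after the start summit, close to the 6665 bp at HSPA6. The HSPA6 and HSPA7 peaks were 81508 bp apart at the starts and 81589 bp apart downstream.

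**Figure D2:**
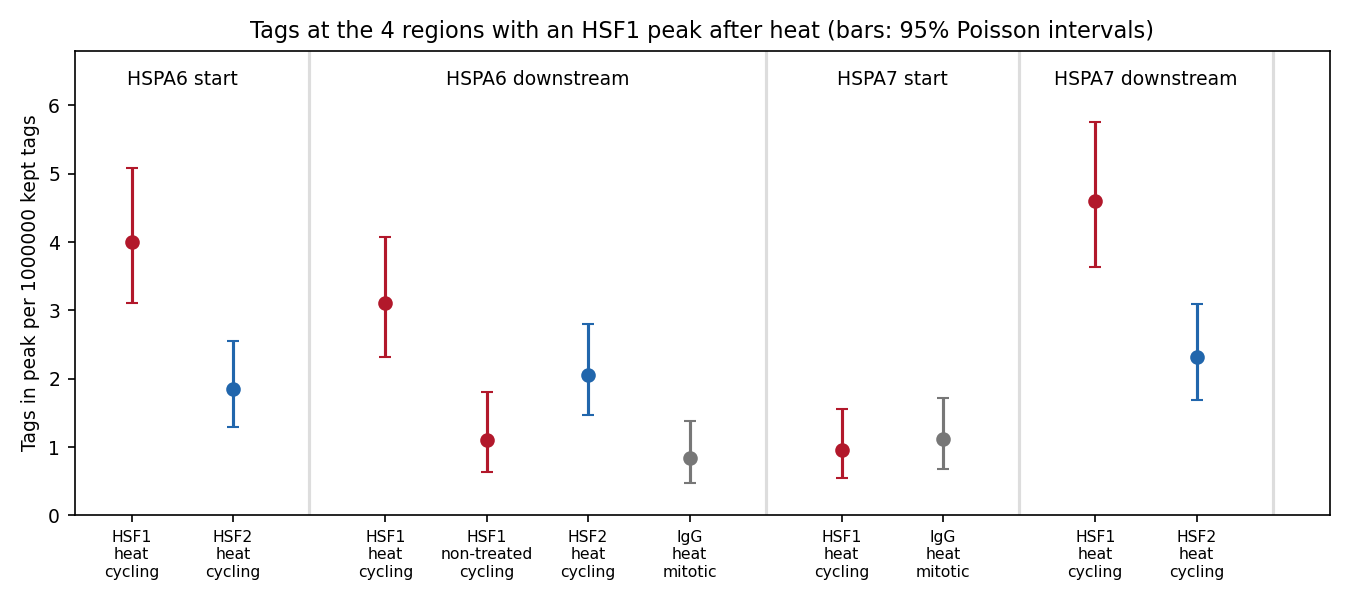
Points are tags in the peak per 1000000 kept tags in each list that has a peak at the 4 places, with 95% Poisson intervals, and lists without a peak are not drawn. HSF1 of heat-treated cycling cells stands at 4.00 CPM at the HSPA6 start and 4.60 CPM downstream of HSPA7, and at 0.956 CPM at the HSPA7 start.

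Within the heat-treated cycling HSF1 list, the HSPA6 start had 4.19 times the tags of the HSPA7 start (2.40 to 7.74). Downstream the order turned, with 0.675 times as many tags at HSPA6 as at HSPA7 (0.466 to 0.973). These peaks are 948 bp and 1105 bp long, and per kb of peak the downstream ratio was 0.787. For HSF2 the downstream ratio of HSPA6 to HSPA7 was 0.889 (0.566 to 1.39), an interval that includes 1. The peak at the HSPA6 start is 1091 bp long, against 631 bp at the HSPA7 start, and per kb of peak the ratio at the starts was 2.42. By order of HSF1 level the downstream HSPA7 peak came first and the HSPA6 start next, followed by the downstream HSPA6 peak and the HSPA7 start. The intervals of neighbours among the first 3 overlap, and that of the HSPA7 start lies below all of them. Within HSPA6 the downstream peak had 0.776 times the HSF1 tags of the start peak (0.530 to 1.13), and within HSPA7 4.81 times (2.78 to 8.84), or 2.75 times per kb of peak.

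HSF1 had more tags per kept tag than HSF2 at each of the 3 places where both had a peak in heat-treated cycling cells. The ratio of HSF1 to HSF2 in CPM was 2.17 at the HSPA6 start (1.42 to 3.34), 1.99 downstream of HSPA7 (1.36 to 2.94) and 1.51 downstream of HSPA6 (0.983 to 2.34). The interval of the last includes 1, and the same ratio by the deposited fold scaled by depth was 2.74. HSF1 had the higher CPM at 257 of the 280 HSF1 sites of fold 10 or more that also had an HSF2 peak, and the median ratio over these 280 sites was 1.49. At the HSPA6 start the ratio was exceeded at 29 of the 280 sites, downstream of HSPA7 at 41 and downstream of HSPA6 at 133. The counting intervals of all 3 ratios include the median of 1.49. By the fold scaled by depth the ratios were 2.43 at the HSPA6 start and 1.88 downstream of HSPA7, so their order depends on the measure. The 280 sites were chosen by a high HSF1 fold and by the presence of an HSF2 peak, not by the HSF2 level. A choice by high HSF1 can raise the ratio of HSF1 to HSF2. The count of 257 and the median of 1.49 are not free of this choice.

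**Figure D3:**
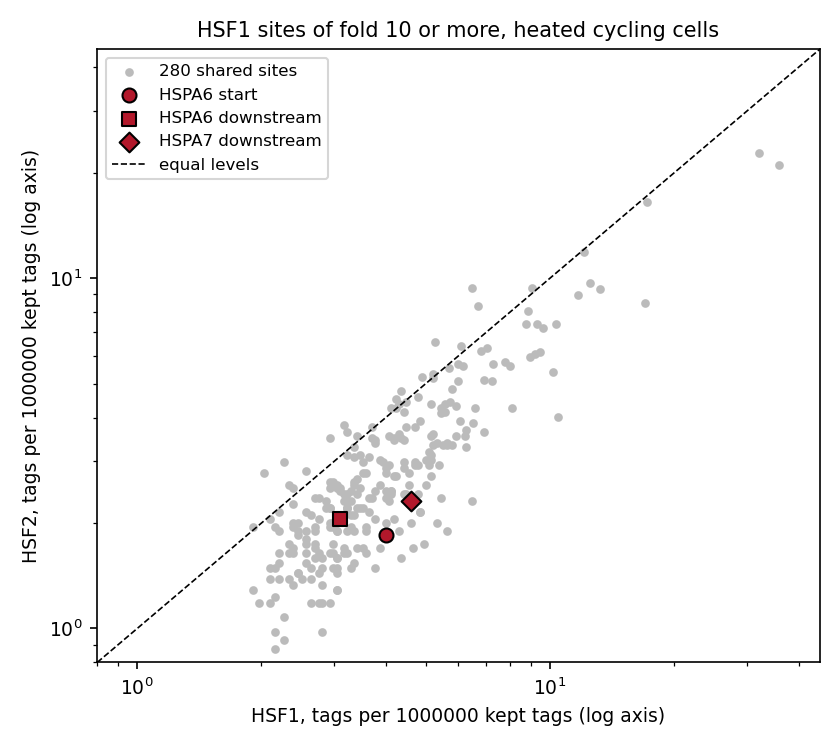
Grey points are the 280 HSF1 sites of fold 10 or more with an HSF2 peak in heat-treated cycling cells, by HSF1 (x) and HSF2 (y) tags per 1000000 kept tags on log axes, and the dashed line marks equal levels. The HSPA6 and HSPA7 sites lie below the dashed line, with the HSPA6 start toward the lower edge of the cloud at 4.00 CPM of HSF1 and 1.85 CPM of HSF2.

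Among all HSF1 peaks of heat-treated cycling cells, 285 of 6447 (4.42%) had a fold of at least 10. They include 3 of the 4 HSPA6 and HSPA7 peaks: the HSPA6 start ranked 95 by fold, the downstream HSPA7 peak 187 and the downstream HSPA6 peak 232. The HSPA7 start ranked 3529 of the 6447. Their neighbours by fold were on chromosome 11 at 65260867 to 65262067 (fold 15.26) just above the HSPA6 start and on chromosome 19 at 2677758 to 2678963 (fold 15.0) just below it. By CPM, the HSPA6 start, at 4.00, stood near the median of the 285 sites (3.64 CPM) and far below the highest (35.9 CPM). In the HSF2 list, 156 of 4315 peaks (3.62%) reached a fold of 10, and none of the members did. There the HSPA6 start ranked 360, the downstream HSPA6 peak 1127 and the downstream HSPA7 peak 353. Having another HSF1 site of fold 10 or more within 10000 bp, as the HSPA6 start and downstream peaks do, was shared by 25 of the 285 sites (8.77%).

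In mitotic cells no HSF1 or HSF2 peak was listed at the HSPA6 start, downstream of HSPA6, at the HSPA7 start or downstream of HSPA7, with or without heat. The lone HSF member of mitotic cells was an HSF2 peak without heat at 161490032 to 161490628, with its summit at -3854 bp from the HSPA6 start, 13 tags (0.879 CPM) and a fold of 1.94. No peak in any other list overlaps it. At the 285 strong HSF1 sites of heat-treated cycling cells, heat-treated mitotic HSF1 had a peak at 55.1% and heat-treated mitotic HSF2 at 35.1%, and 111 sites (38.9%) had neither. The 3 strong HSPA6 and HSPA7 sites belong to these 111, so the lack of a mitotic peak is not particular to them. Without heat, the shares of the 285 sites were 4.91% for mitotic HSF1 and 15.1% for mitotic HSF2, or 2.81% and 8.77% by 50% reciprocal overlap.

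Library depth limits what these lists can hold. At the 4.00 CPM of the HSPA6 start, the heat-treated mitotic HSF1 library (7385467 kept tags) would have 29.6 tags, more than 85.8% of the peaks in its list, whose smallest has 9. At the 1.85 CPM of HSF2 the heat-treated mitotic HSF2 library (28299989 kept tags) would have 52.3 tags, more than 89.1% of its peaks. Downstream, the same sums for mitotic HSF1 gave 22.9 tags at HSPA6 and 34.0 at HSPA7. With equal enrichment and tag filtering, a level like that of cycling cells would be within the range of tags these lists hold elsewhere. The HSPA7 start differs: at 0.956 CPM the mitotic HSF1 library would have 7.06 tags, fewer than its smallest peak, so its absence there was not detectable at this depth. Filtering was not equal for HSF1: heat-treated mitotic cells kept at most 1 tag per position, and heat-treated cycling cells 2. Only 6 peaks of the heat-treated mitotic HSF1 list reached a fold of 10, while 285 did in cycling cells. The heat-treated HSF2 lists held 10 such peaks in mitosis and 156 in cycling cells. Kept tags and inputs differ between these lists, and the fold serves to rank peaks within a list. A fold of 10 is therefore not a common threshold for them. Whether such differences left these places without a mitotic peak was not tested. Tags outside listed peaks are not in the files, so no mitotic level can be given. IgG of heat-treated mitotic cells had peaks downstream of HSPA6 and at the HSPA7 start. No list of the mitotic alignment naming had a peak at the HSPA6 start or downstream of HSPA7, and the part of read placement in this was not tested. This IgG list is also the longest, with 41184 peaks. Its remaining member, at 161487734 to 161488323, had 13 tags (0.723 CPM) and a fold of 2.88.

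Without heat in cycling cells, HSF1 had a peak at 1 of the 3 strong HSPA6 and HSPA7 sites, and HSF2 at none. Over the 285 strong sites the shares were 5.61% for HSF1 (2.81% by 50% reciprocal overlap) and 11.9% for HSF2. At the level of heat-treated cells the non-treated cycling libraries would have 57.8 tags at the HSPA6 start for HSF1 and 53.0 for HSF2, and 66.5 and 66.3 downstream of HSPA7. For HSF1 at the HSPA7 start the same sum gave 13.8 tags, close to the 12 of the smallest peak in that list. The lack of a non-treated HSF1 peak at the HSPA7 start is therefore near the limit of that list. The HSF2 list without heat is short, with 875 peaks, of which 59.2% have fewer than 53.0 tags. In the IgG list of heat-treated mitotic cells, 1 of the 3 sites and 19.3% of the 285 were covered by a peak, against none of the 3 and 1.75% in that of heat-treated cycling cells. By 50% reciprocal overlap these shares of the 285 were 11.2% and 1.05%. Non-treated IgG had a peak at none of the 3 sites, with 0% of the 285 in mitotic and 2.11% in cycling cells (0.351% by 50% reciprocal overlap).

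**Figure D4:**
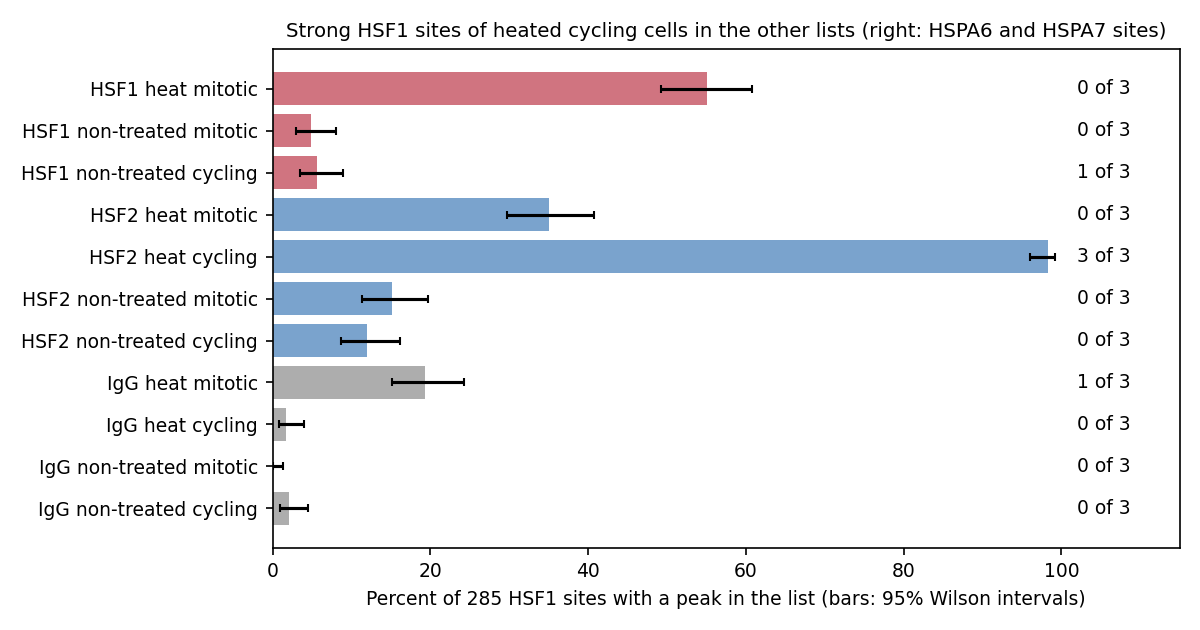
Bars give the percent of the 285 HSF1 sites of fold 10 or more in heat-treated cycling cells that overlap a peak of each other list by 1 bp or more, with 95% Wilson intervals, and the counts at the right give the same for the 3 strong HSPA6 and HSPA7 sites. HSF2 of heat-treated cycling cells stands at 98.2% and 3 of 3, and heat-treated mitotic HSF1 at 55.1% and 0 of 3.

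The pattern of the HSPA6 start, a peak in HSF1 and HSF2 of heat-treated cycling cells and in no other list, was common. It was shared by 90 of the 285 strong HSF1 sites (31.6%), the downstream HSPA7 peak among them. The downstream HSPA6 pattern, with a peak in both heat-treated cycling lists, in non-treated cycling HSF1 and in heat-treated mitotic IgG, was found at 1 of the 285 (0.351%), which is that site itself, and at 2 of all 6447 peaks (0.031%). By levels over the 12 lists, measured as a Euclidean distance on log2(CPM + 0.1) with lists without a peak set to 0, the peak most like the HSPA6 start was on chromosome 16 at 24146902 to 24148028. It had 67 HSF1 tags (4.00 CPM) and 1.90 CPM of HSF2, at a distance of 0.0375. The next were on chromosome 1 at 21794801 to 21795795, on chromosome 12 at 57505034 to 57506267, and on chromosome 1 at 120386478 to 120387623 and at 12493635 to 12494658, with HSF1 levels of 3.88 to 4.18 CPM. The downstream HSPA7 peak came at a distance of 0.364, with 18 peaks nearer counting the HSPA6 start itself. This likeness is a description over 12 libraries that share inputs within a cell state.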

How the data were processed

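The data are 12 peak lists, 1 per antibody library. The submitters' processing notes name Bowtie, hg19 and MACS 1.4. MACS 1.4.1 called each library against the input of its cell state, per the file headers, at a p cutoff of 1e-05 with fragments of 200 bp and at most 2 tags, or 1, per position. The deposited tags are counts per peak, the fold is a deposited ratio, the FDR a deposited percent, and the score is minus 10 times log10 of p per the file headers. The list with accession names for chromosomes was renamed.

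Kept tags were read from the headers. CPM has exact Poisson intervals, ratios have exact conditional binomial intervals, and shares have Wilson intervals, all at 95% and for counting error only; tags have no molecular identifiers. Overlap was 1 bp or more, and overlapping members were merged into 7 places. A strong site has a fold of at least 10. Promoters are RefSeq, GRCh38.p14. Named sites follow distance over lists and rank by fold. Members, lists and measures were chosen with earlier results of these data known. On simulated data, 100 of 100 planted sites were recovered among 285. They were copies shifted by at most 100 bp of sites with a median length of 1011 bp, so this outcome was fixed in advance. On the deposited lists, overlaps were unlike those of bedtools 2.31.1 in 0 of 24 list pairs, which include lists paired with themselves. Tools were scipy 1.17.1, pandas 2.3.3, numpy 2.4.6, matplotlib 3.10.9 and Python 3.11.15.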

Additional observations from a re-analysis of the deposited data

How the results depend on the processing

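Counts of lists with a peak depended on the minimum. HSPA6 had a peak in 5 lists with no minimum, 2 at a fold of at least 5, 1 at a fold of at least 10, 2 at a score of at least 100 and 2 with summits within 2 kb of its start. HSPA7 had a peak in 3 lists and in 1 at a fold of at least 10. An FDR of at most 5% removes the non-treated HSF1 peak and leaves 4 lists at HSPA6. Leaving out HSF peaks that overlap IgG of the same cells could change no count. The IgG lists of the cells with an HSF member hold no peak in either window. No HSF peak of heat-treated mitotic cells lay in either window. Reciprocal overlap and summit distance therefore could not give one at the 4 HSF1 sites.

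Of the ratios, those that left their counting interval were HSF1 over HSF2 downstream of HSPA6 (2.74 by the fold scaled by depth), downstream over start at HSPA6 for HSF2 (0.621 by the same fold) and downstream over start at HSPA7 for HSF1 (2.75 per kb of peak). By CPM the HSF2 ratio of downstream over start at HSPA6 was 1.11 (0.690 to 1.79), so its direction depends on the measure. The cause of these shifts was not tested. The ratios were set, and these alternatives added, after the data were seen, except those of heat and of HSPA6 to HSPA7 per kb.

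By CPM in place of fold the HSF1 ranks were 497 (HSPA6 start), 751 (downstream HSPA6) and 395 (downstream HSPA7), and the HSF2 ranks 977 (HSPA6 start) and 710 (downstream HSPA7). By score the downstream HSPA7 peak ranked 122 for HSF1.

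Shares over the strong HSF1 sites moved with 50% reciprocal overlap to 49.1% for heat-treated mitotic HSF1, 2.81% for non-treated HSF1 of mitotic and of cycling cells, 8.77% for non-treated mitotic HSF2, 11.2% for heat-treated mitotic IgG and 0.351% for non-treated cycling IgG. By summits within 250 bp they were 9.12% for non-treated mitotic HSF2, 9.47% for heat-treated mitotic IgG and 0.351% for cycling IgG with and without heat. Over all 6447 HSF1 peaks they were 16.3% for heat-treated mitotic HSF1, 12.4% for heat-treated mitotic HSF2, 32.6% for heat-treated cycling HSF2, 9.96% for non-treated mitotic and 11.7% for non-treated cycling HSF1, 5.12% for non-treated cycling HSF2, 5.27% for non-treated mitotic IgG and 11.7% for cycling IgG with and without heat. With 1 mismatch allowed, 6.24% of promoters held 3 units and HSPA6 held 4 matches. No paired analysis was possible because each group holds 1 library. Depth limits the non-treated mitotic IgG list (2066373 kept tags) and the mitotic HSF1 lists (7385467 with heat, 6164898 without).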
